A study of Mus musculus with 12 samples.

Results

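The RAS-MAPK feedback and output genes described here are 10 mouse genes: Dusp4, Dusp6, Spry2, Spry4, Spred1, Etv4, Etv5, Phlda1, Epha2 and Fosl1. They are taken by symbol, as genes known to be switched on by the RAS-MAPK pathway, and the set was drawn up with earlier results of these data known. Each symbol matched 1 row of a count table of 78298 gene rows. All 10 were among the 22190 genes with enough counts to be tested. RNA came from the lungs of mice carrying LLC tumours, an abbreviation used here as the labels give it, and from normal lung dissected beside such tumours. Both tissues came from mice given HDM, house dust mite, or VEH, which the labels do not spell out. The 4 groups, of 3 libraries each, are named by tissue and treatment (normal or tumour, VEH or HDM). Strain, sex, age, dose and time of sampling are not given in the sources used here.

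In the RAS-MAPK pathway, growth factor receptors load RAS proteins with GTP, and RAS then activates the kinases RAF, MEK and ERK in turn. Active ERK switches on genes that shut the pathway down again, among them dual-specificity phosphatases (DUSP), which remove the activating phosphates from MAP kinases, and Sprouty (SPRY) and SPRED proteins, which act upstream on RAS and RAF. It also raises transcription factors and surface proteins that carry the output of the pathway, so that RNA from such genes is widely read as a sign of ERK activity. In normal lung, the ETS factors Etv4 and Etv5 act in branching of the airways, and Etv5 is also known for maintaining alveolar type II cells, which make surfactant. ERK activity itself was not measured, and RNA levels alone are reported.

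The letters upstream of the genes are shown first, because 5 of the 10 genes carry, within 250 bases before their start, an octamer known to bind Capicua (Cic), a repressor that ERK signalling releases from DNA. Both forms, TGAATGAA and TGAATGGA, were searched on both strands. Either form was found upstream of Dusp4, Spry4, Etv4, Etv5 and Epha2, against 444 of 21757 protein-coding promoters of the same length (2.04%). The lines give 30 bases on either side of the outermost matches, read on the strand of the gene and ending at the start site where it lies nearer, in GRCm39 with the octamers in capitals. The Dusp4 match lies on the other strand and is printed as TCCATTCA.
Etv4, chr11:101676279-101676401, minus strand: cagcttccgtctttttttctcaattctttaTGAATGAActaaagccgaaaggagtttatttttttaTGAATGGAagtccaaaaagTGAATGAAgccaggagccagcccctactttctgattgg
Etv5, chr16:22258641-22258708, minus strand: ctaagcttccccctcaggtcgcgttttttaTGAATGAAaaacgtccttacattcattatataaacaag
Dusp4, chr8:35274322-35274389, plus strand: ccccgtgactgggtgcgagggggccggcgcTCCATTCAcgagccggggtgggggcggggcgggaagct
Epha2, chr4:141028487-141028539, plus strand: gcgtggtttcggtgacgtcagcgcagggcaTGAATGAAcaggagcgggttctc

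Etv4 held 3 octamers, beginning 174, 138 and 119 bases before its start. The single octamers of Etv5, Dusp4 and Epha2 began 195, 90 and 23 bases before theirs. The Spry4 octamer, on the other strand, began 213 bases before its start, and that stretch is not printed. The Etv5 stretch lies inside a longer annotated Etv5 transcript but in none of that gene's exons. Exons of lncRNA genes on the opposite strand reach into the Etv4, Etv5 and Dusp4 stretches, namely Gm39392, Gm59753 and Gm56852. Other letter patterns were searched in the same windows on both strands. The AP-1 motif TGANTCA, bound by FOS and JUN family dimers, was in 1 window (Etv5) against 6.18% of all promoters, and the cAMP response element TGACGTCA was in 1 (Epha2) against 1.7%. The ETS motif CCGGAAGT and the CArG box of serum response factor were in none, against 2.64% and 1.4%. The shorter ETS core CGGAAG, part of the ETS motif, was in 2 windows (Dusp6 and Etv4) against 14.3%, and the TATA motif TATAAA in 2 (Etv5 and Fosl1) against 11.9%. A match describes the letters only, and binding was not measured in these data.

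Library totals ran from 20608682 to 32765364 counts, and the share on mitochondrial genes from 1.96% to 5.38% in normal lung and from 0.342% to 1.79% in tumours, with no overlap. The part of this share in the tumour differences was not tested. Summed markers of alveolar epithelium (10 genes) ranged from 18362 to 45440 CPM over the 6 normal libraries and from 109 to 9217 CPM in tumours. CPM is the count scaled to its library's depth, here with trimmed-mean (TMM) factors. Markers of airway epithelium (8 genes) summed to 24937 to 113668 CPM in normal lung and 19.3 to 20108 CPM in tumours, and those of endothelium (8 genes) to 1704 to 3539 and 101 to 592 CPM. Fibroblast and matrix markers (7 genes) summed to 975 to 3146 CPM in normal lung and 5451 to 14010 CPM in tumours. The 7 did not move together. Under each treatment 3 were higher in tumours and 1 lower at the threshold given below, and 3 did not pass. At that threshold 3 of the 10 alveolar markers were lower in tumours under VEH, and 10 under HDM. Of the 8 airway markers, 0 passed under VEH and 6 were lower under HDM. The 8 endothelial markers were all lower under both treatments. Over all tested genes, 18.2% were higher and 20.6% lower under VEH, and 23.0% and 28.9% under HDM. None of the alveolar, airway, endothelial or fibroblast and matrix markers was at 0 in every library of a group. Normal VEH replicate 2 stood apart from the other 5 normal libraries in the summed level of 8 proliferation markers, with 175 CPM against 32.0 to 47.2 CPM there and 546 to 1109 CPM in tumours. It also had the lowest endothelial sum of the normal libraries (1704 against 3032 CPM or more) and the highest fibroblast and matrix sum (3146 against at most 2388 CPM). Its smooth muscle and pericyte sum was 115 CPM, against at least 314 CPM in the other normal libraries, and its mesothelial sum 845 CPM, against at most 466 CPM. Tumour VEH replicate 2 held the highest alveolar and airway sums of the tumours. In such bulk pieces, fewer cells of a type and less RNA per cell cannot be told apart.

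Tumours held more RNA of 9 of the 10 genes than normal lung under VEH and of 8 under HDM, and less Etv5 under HDM. Among the genes that rose, the fold difference ran from 1.42-fold for Phlda1 to 8.08-fold for Etv4 under VEH, and from 1.61-fold for Spred1 to 43.9-fold for Etv4 under HDM. The count of 9 higher and 0 lower under VEH stood beside 18.2% of all tested genes called higher and 20.6% called lower (38.9% in either direction). The count of 8 higher and 1 lower under HDM stood beside 23.0% called higher and 28.9% lower (51.9% in either direction). Tumour and normal libraries did not overlap for 9 of the 10 genes under each treatment, against 52.4% of all genes under VEH and 63.1% under HDM. The median log2 fold change over the 10 genes was 1.43 under VEH and 1.22 under HDM, against -0.11 and -0.08 over all tested genes. A call is a two-sided p below 0.05 in edgeR's quasi-likelihood test after Benjamini-Hochberg adjustment across the 22190 tested genes. The labels do not say that the replicates are separate animals, so these p-values measure the spread between libraries, which may be technical.

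**Figure D1:**
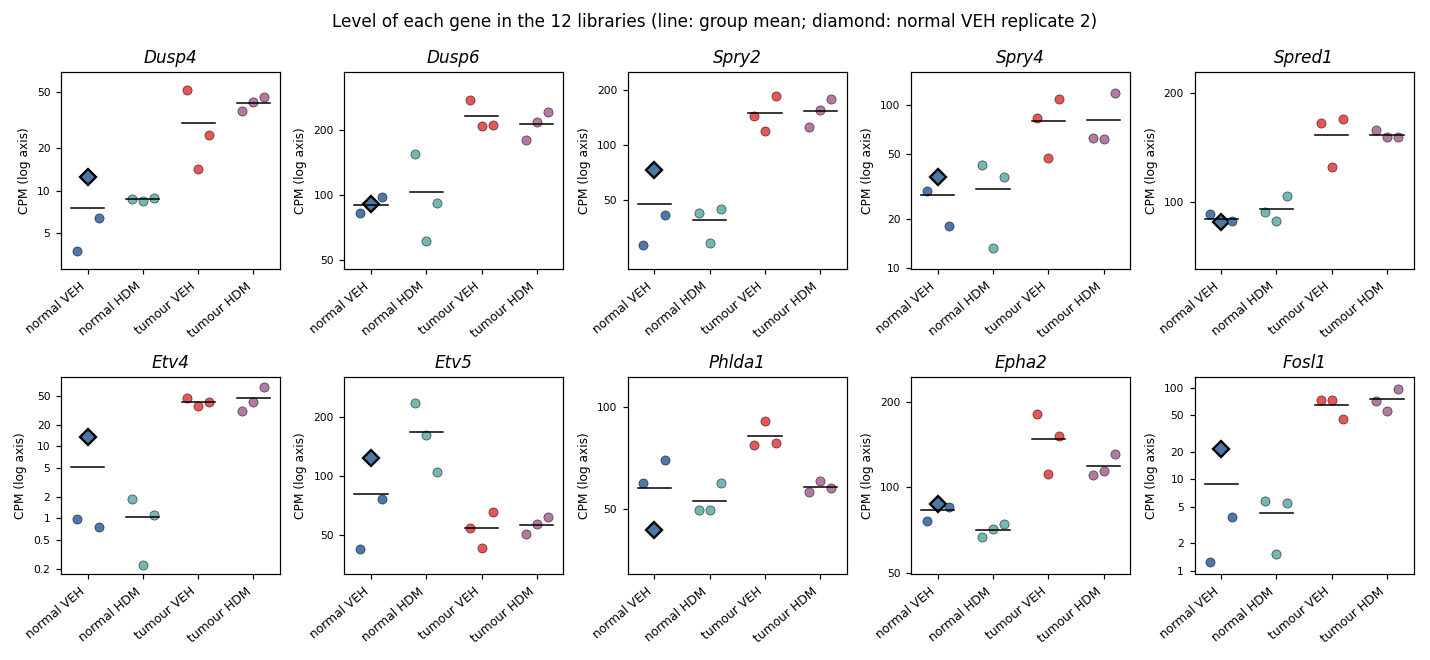
Level of each of the 10 genes in the 12 libraries, in CPM on a log axis, by group; points are libraries, lines are group means (n = 3) and the diamond is normal VEH replicate 2. The tumour libraries lie above all 6 normal libraries for 8 genes, Etv5 is highest in normal HDM, and for Phlda1 the tumour VEH libraries alone lie above every normal library.

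The MAP kinase phosphatases come first. Dusp6, on chromosome 10 (99086564 to 99103361, plus strand), encodes a cytoplasmic phosphatase specific for ERK. Its level was 82.5, 90.9 and 97.8 CPM in normal VEH (replicates 1, 2 and 3, in that order throughout) and 155, 61.5 and 91.7 CPM in normal HDM. In tumours it was 274, 209 and 210 CPM under VEH, and 179, 216 and 242 CPM under HDM. Every tumour library was above every normal library, and the closest approach was normal HDM replicate 1. Dusp6 was 2.56-fold higher in tumours under VEH (log2 1.36 ± 0.28 SE, adjusted p = 0.00459) and 2.07-fold higher under HDM (log2 1.05 ± 0.28, adjusted p = 0.0102).

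Dusp4, on chromosome 8 (35274442 to 35287048, plus strand), encodes a nuclear phosphatase that acts on ERK and other MAP kinases. It was a low gene in normal lung, at 3.78, 12.4 and 6.39 CPM under VEH and 8.72, 8.53 and 8.87 CPM under HDM. Tumours held 51.4, 14.2 and 24.8 CPM under VEH and 36.6, 42.7 and 45.9 CPM under HDM. The groups did not overlap, but tumour VEH replicate 2 came close to normal VEH replicate 2, while the 3 tumour HDM libraries lay close together. The fitted difference was 3.99-fold under VEH (log2 1.99 ± 0.48 SE, adjusted p = 0.00933) and 4.80-fold under HDM (log2 2.26 ± 0.49, adjusted p = 0.00335).

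Among the genes of the set, those for inhibitors acting upstream on RAS and RAF (Spry2, Spry4 and Spred1) rose in tumours under both treatments. Spry2, on chromosome 14 (106128766 to 106136446, minus strand), encodes a Sprouty protein that dampens signalling from receptor tyrosine kinases. Its normal level was 28.4, 73.4 and 41.6 CPM under VEH and 42.8, 29.1 and 45.0 CPM under HDM. In tumours it was 145, 121 and 187 CPM under VEH and 127, 157 and 180 CPM under HDM. The lowest tumour library was above the highest normal one, which was normal VEH replicate 2 and stood at 1.63 times the next normal library. Spry2 was 3.15-fold higher in tumours under VEH (log2 1.66 ± 0.33 SE, adjusted p = 0.00345) and 3.96-fold higher under HDM (log2 1.99 ± 0.33, adjusted p = 0.000836).

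Spry4, on chromosome 18 (38719300 to 38736025, minus strand), encodes another Sprouty inhibitor. Normal lung held 29.6, 36.3 and 18.0 CPM under VEH and 42.6, 13.3 and 36.0 CPM under HDM. Tumours held 82.7, 47.5 and 110 CPM under VEH and 62.6, 61.8 and 118 CPM under HDM. The groups did not overlap, but the spread within each group was wide, most of all in normal HDM. Spry4 was 2.86-fold higher under VEH (log2 1.51 ± 0.47 SE, adjusted p = 0.0289) and 2.64-fold higher under HDM (log2 1.40 ± 0.47, adjusted p = 0.0293). Both calls depended on single libraries. Under VEH the call was lost without normal VEH replicate 1 (log2 1.56, adjusted p = 0.071), normal VEH replicate 3 (1.28, 0.0969), tumour VEH replicate 1 (1.59, 0.0584) or tumour VEH replicate 3 (1.30, 0.087). Under HDM it was lost without normal HDM replicate 2 (1.04, adjusted p = 0.0753) or tumour HDM replicate 3 (1.15, 0.0846).

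Spred1, on chromosome 2 (116951524 to 117018277, plus strand), encodes a SPRED protein that brings the RAS-inactivating protein neurofibromin to the membrane. It was the steadiest of the genes in normal lung, at 92.5, 87.9 and 88.5 CPM under VEH and 93.8, 88.7 and 104 CPM under HDM. Tumours held 165, 125 and 170 CPM under VEH and 158, 151 and 151 CPM under HDM. The tumour libraries all lay above the normal ones, with tumour VEH replicate 2 the nearest. Its rise was small beside those of Spry2 and Spry4, and narrow in its error, at 1.71-fold under VEH (log2 0.78 ± 0.13 SE, adjusted p = 0.00182) and 1.61-fold under HDM (log2 0.68 ± 0.13, adjusted p = 0.00194).

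The related ETS factors Etv4 and Etv5 differed in their course. Etv4, on chromosome 11 (101660568 to 101676197, minus strand), was at 1.84 CPM or less in 5 of the 6 normal libraries. It was at 0.985, 13.6 and 0.757 CPM in normal VEH and at 1.84, 0.226 and 1.10 CPM in normal HDM, where the lowest library had 6 counts. In tumours it reached 46.9, 36.0 and 42.0 CPM under VEH and 30.7, 40.7 and 67.8 CPM under HDM. The groups were far apart, and normal VEH replicate 2 alone lay between the other normal libraries and the tumours, at 7.37 times the next highest normal library. Etv4 was 8.08-fold higher under VEH (log2 3.02 ± 1.00 SE, adjusted p = 0.0367) and 43.9-fold higher under HDM (log2 5.46 ± 1.14, adjusted p = 0.00311).

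The size of the Etv4 difference under VEH rested on normal VEH replicate 2: without it the log2 fold change was 5.58 (adjusted p = 0.000604). The call itself was lost on leaving out normal VEH replicate 1 (log2 2.53, adjusted p = 0.0933), normal VEH replicate 3 (2.51, 0.0858), tumour VEH replicate 1 (3.0, 0.0756), tumour VEH replicate 2 (3.11, 0.0512), tumour VEH replicate 3 (3.08, 0.0733) or tumour HDM replicate 2 (3.09, 0.0503). Under HDM the Etv4 call held on leaving out any 1 of the 12 libraries, with log2 fold changes from 4.98 to 6.11, the highest without normal HDM replicate 1.

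Etv5, on chromosome 16 (22200052 to 22259662, minus strand), was highest in normal lung. Its level was 42.4, 124 and 76.3 CPM in normal VEH and 237, 163 and 105 CPM in normal HDM. In tumours it was 54.3, 42.7 and 65.2 CPM under VEH and 50.7, 57.0 and 61.6 CPM under HDM. The tumour libraries lay in a narrow band that overlapped normal VEH and fell below all 3 normal HDM libraries. Under HDM, Etv5 was 2.98-fold lower in tumours (log2 -1.58 ± 0.38 SE, adjusted p = 0.00593). Under VEH the difference did not pass (log2 -0.58 ± 0.37, 95% interval -1.40 to 0.24, adjusted p = 0.226), and without normal VEH replicate 2 it was -0.13 (adjusted p = 0.776).

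The summed alveolar markers varied alongside Etv5 in normal lung. In the normal VEH libraries they were at 18362, 37268 and 35629 CPM, and in normal HDM at 45440, 41274 and 26187 CPM. The 6 normal libraries stood in the same order for Etv5 and for these markers, save that normal VEH replicate 3 and normal HDM replicate 3 changed places. This was not particular to alveolar markers. B and plasma cell markers (6 genes) summed to 55.6, 648 and 35.8 CPM in normal VEH and 1169, 711 and 56.3 CPM in normal HDM. They kept the Etv5 order save that normal VEH replicates 1 and 3 changed places. The mitochondrial share kept the reverse order save for normal HDM replicates 1 and 2. All 10 alveolar markers were detected, and the part of these measures in the Etv5 difference was not tested.

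Among Fosl1, Epha2 and Phlda1, Fosl1 had the largest differences. Fosl1, on chromosome 19 (5497575 to 5505974, plus strand), encodes FRA1, a FOS family subunit of AP-1. It was at 1.23, 21.6 and 3.91 CPM in normal VEH and at 5.81, 1.51 and 5.48 CPM in normal HDM. Tumours held 74.5, 74.5 and 46.3 CPM under VEH and 71.5, 56.1 and 97.3 CPM under HDM. No tumour library reached down to the normal ones, and normal VEH replicate 2 was again the highest normal library, at 3.72 times the next. Fosl1 was 7.26-fold higher in tumours under VEH (log2 2.86 ± 0.86 SE, adjusted p = 0.0244) and 17.6-fold higher under HDM (log2 4.13 ± 0.91, adjusted p = 0.00407). Under VEH its log2 fold change was 4.66 without normal VEH replicate 2 (adjusted p = 0.00125), and the call was lost without normal VEH replicate 3 (2.51, 0.0822) or tumour VEH replicate 1 (2.83, 0.056). With the prefix of the library name as a block, neither Fosl1 call held (log2 4.10, adjusted p = 0.0619 under VEH, and 3.88, 0.0537 under HDM).

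Epha2, on chromosome 4 (141028540 to 141056695, plus strand), encodes an ephrin receptor kinase of epithelial and tumour cells. It was at 76.2, 87.5 and 85.5 CPM in normal VEH and at 66.8, 71.5 and 74.5 CPM in normal HDM. In tumours it was at 180, 111 and 151 CPM under VEH and at 111, 115 and 131 CPM under HDM. All tumour libraries lay above all normal ones, and normal VEH replicate 2 was close to its group. The difference was 1.78-fold under VEH (log2 0.83 ± 0.17 SE, adjusted p = 0.00377) and 1.67-fold under HDM (log2 0.74 ± 0.17, adjusted p = 0.00413).

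Phlda1, on chromosome 10 (111342147 to 111344506, plus strand), encodes a small protein with a pleckstrin homology-like domain. It was at 59.8, 43.4 and 69.8 CPM in normal VEH and at 49.7, 49.8 and 59.5 CPM in normal HDM. Tumours held 77.2, 90.6 and 78.5 CPM under VEH and 56.1, 60.5 and 57.7 CPM under HDM. The tumour VEH libraries alone lay above all normal ones, while tumour HDM overlapped normal HDM. Phlda1 was 1.42-fold higher under VEH (log2 0.51 ± 0.17 SE, adjusted p = 0.0342). Under HDM the difference did not pass (log2 0.13 ± 0.17, 95% interval -0.24 to 0.50, adjusted p = 0.525). The call under VEH was lost without normal VEH replicate 1 (log2 0.54, adjusted p = 0.0683), normal VEH replicate 2 (0.34, 0.0841) or tumour VEH replicate 2 (0.44, 0.0851).

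**Figure D2:**
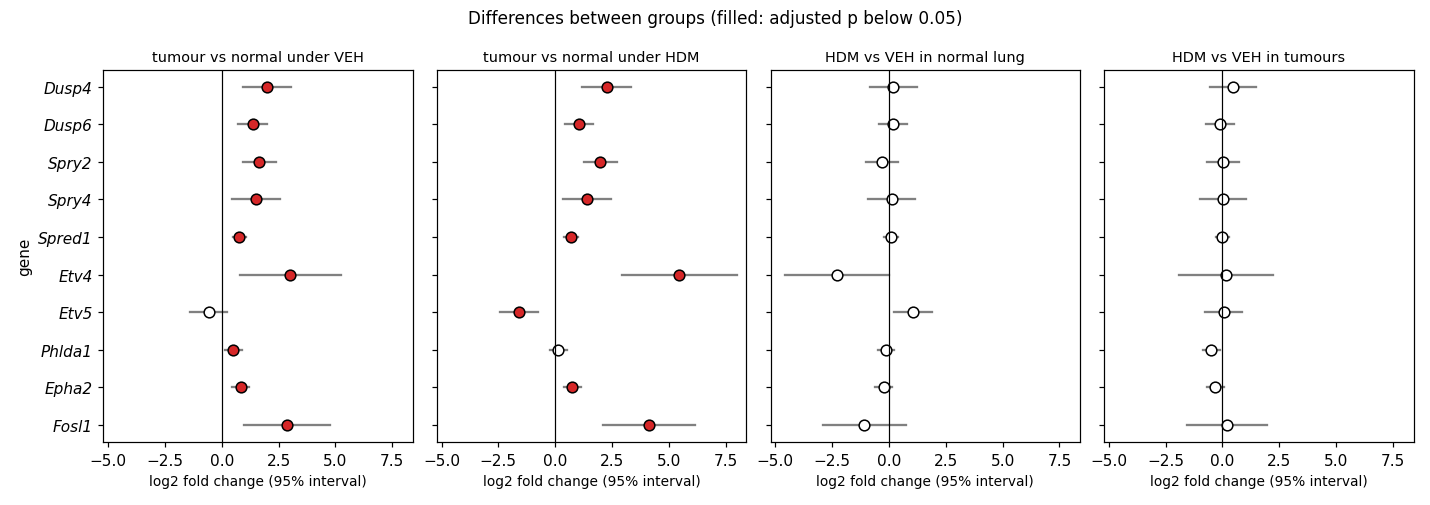
Log2 fold change of each of the 10 genes in each comparison; points are edgeR estimates from 3 libraries a group, bars are 95% confidence intervals and filled points passed an adjusted p of 0.05. The tumour against normal panels hold 9 filled points each, and the panels of HDM against VEH hold none.

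Normal VEH replicate 2 was the highest normal library for Etv4, Fosl1, Spry2, Dusp4 and Epha2, and the lowest for Phlda1 and Spred1. The same library held 115 CPM of Myc against at most 25.8 CPM in the other normal libraries, and 14.8 CPM of Dusp9, a further MAP kinase phosphatase, against at most 3.11 CPM. These values stood between the other normal libraries and the tumours (at least 264 CPM of Myc and 63.8 CPM of Dusp9), as did its proliferation markers. Without it, 8 of the 10 genes were called higher under VEH in place of 9, Phlda1 being lost, and the median over the 10 was 1.56. That fit called 4248 of 23126 tested genes higher under VEH and 4494 lower. The part of this library's proliferation, endothelial, fibroblast, smooth muscle and mesothelial markers in the differences was not tested.

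The response to HDM was compared within each tissue. In normal lung, 0 of the 10 genes passed, as did 0% of all tested genes by edgeR (1230 genes had an unadjusted p below 0.05, and DESeq2 called 38). Without the 4 libraries whose name prefix joins different treatment labels, 2831 genes had an unadjusted edgeR p below 0.05 and 0 passed. Over the 10 genes the median log2 fold change of HDM against VEH was -0.01. Etv5 was 2.08-fold higher under HDM (log2 1.06 ± 0.37 SE, 95% interval 0.23 to 1.88, adjusted p = 0.887) and Etv4 4.88-fold lower (log2 -2.29 ± 1.03, interval -4.56 to -0.01, adjusted p = 0.887). Both had an unadjusted p below 0.05, 0.0167 for Etv5 and 0.0488 for Etv4, and neither passed the adjustment. The groups overlapped for both genes. For Etv5 the overlap lay between normal VEH replicate 2 (124 CPM) and normal HDM replicate 3 (105 CPM). Each of these libraries shares its name prefix with a tumour library of the other treatment label. Without normal VEH replicate 2 the Etv4 difference changed sign, to 0.27, and that of Etv5 grew to 1.51 (adjusted p = 0.447). The alveolar and the B and plasma cell marker sums given above stand beside these Etv5 values. Epha2 alone had no overlap between normal VEH and normal HDM, as had 10.3% of all genes, and its log2 fold change was -0.23 ± 0.17 (interval -0.59 to 0.14, adjusted p = 0.945).

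In tumours, 0 of the 10 genes passed between HDM and VEH, beside 0.0946% of all tested genes (21, of which 2 were higher, 0.00901%, and 19 lower, 0.0856%). That count over all genes was 1308 by DESeq2 and ran from 0 to 24 in the edgeR fits without 1 library. Phlda1 was the gene nearest to the threshold, 1.41-fold lower under HDM (log2 -0.50 ± 0.17 SE, 95% interval -0.87 to -0.13, unadjusted p = 0.013, adjusted p = 0.213). Its 3 tumour HDM libraries were all below its 3 tumour VEH libraries, a separation seen for 22.0% of all genes. Epha2 was at -0.32 ± 0.17 (interval -0.68 to 0.05, adjusted p = 0.362). Spred1 was at 0.00 with an interval of -0.29 to 0.29, the narrowest of the 10, and Dusp6 at -0.12 (interval -0.74 to 0.49). The intervals of Etv4 (-1.89 to 2.20) and Fosl1 (-1.56 to 1.97) were the widest of the 10. Without normal VEH replicate 2, which is in neither tumour group but shares in the estimate of spread, their SEs were 0.49 and 0.50, against 0.92 and 0.80 with it. DESeq2 called 0 of the 10 genes in either tissue.

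Whether the tumour difference itself changed with HDM was tested as an interaction of tissue and treatment. It passed for 0 of the 10 genes and for 0% of all tested genes by edgeR (2084 had an unadjusted p below 0.05, and DESeq2 called 219, with none of the 10 among them). None of the 10 had an unadjusted p below 0.05. The estimates furthest from 0 were those of Etv4 (log2 2.44 ± 1.37 SE, 95% interval -0.60 to 5.48, adjusted p = 0.571), Fosl1 (1.28 ± 1.15, interval -1.27 to 3.82, adjusted p = 0.713) and Etv5 (-0.99 ± 0.52, interval -2.15 to 0.16, adjusted p = 0.556). Without normal VEH replicate 2 the estimates of Etv4 and Fosl1 changed sign, to -0.12 (adjusted p = 0.984) and -0.53 (0.845), and that of Etv5 was -1.44 (0.508). The calls of Etv5 under HDM alone and of Phlda1 under VEH alone are therefore not shown to differ between treatments. For Phlda1 the interaction was -0.38 ± 0.24 (interval -0.90 to 0.15, adjusted p = 0.605). The comparisons within each tissue and treatment share libraries.

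The sample descriptions give each library a name whose prefix joins 1 normal and 1 tumour library, in 6 prefixes. In 4 of these both libraries carry the same treatment, and in the other 2 the treatment labels differ. Normal VEH replicate 2 is in 1 of those 2 and normal HDM replicate 3 in the other. Mitochondrial share was 2.5% in the former, beside 2.2% and 2.0% in normal HDM replicates 1 and 2. It was 3.6% in the latter, beside 5.4% and 3.8% in normal VEH replicates 1 and 3. Etv5 and the alveolar and B and plasma cell sums split the normal libraries likewise. So did the marker sums of macrophages and monocytes, neutrophils and, by a narrow margin, endothelium. The second principal component of the 1000 most variable genes did so too (-48.1 to -33.3 against 23.7 to 35.2). The airway, fibroblast, proliferation, smooth muscle, mesothelial, T and NK cell, cardiac and adipose sums did not. Whether these labels were exchanged was not tested, and they are used as given. The fit with the prefix as a block called 6 of the 10 genes higher under VEH, losing Dusp4 (2.17, adjusted p = 0.056), Phlda1 (0.42, 0.0721) and Fosl1, and 7 higher and 1 lower under HDM, losing Fosl1. Of all 22190 tested genes it called 3061 higher and 2722 lower under VEH, and 3804 higher and 4827 lower under HDM. Taken within a prefix, as a description, 9 genes were higher in the tumour library in 6 of 6 prefixes. The share of all genes that did so was not computed. The log2 difference ran from 1.58 to 6.67 for Etv4 (median 5.30) and from 1.37 to 5.84 for Fosl1 (median 4.14). It ran from 1.09 to 2.35 for Spry2, 1.14 to 3.74 for Dusp4, 0.77 to 2.23 for Spry4 and 0.64 to 1.73 for Dusp6. The 3 genes with the narrowest range were Phlda1 (0.17 to 0.48), Spred1 (0.50 to 0.84) and Epha2 (0.38 to 1.24). Etv5 was higher in the tumour library in 1 of 6 prefixes, with a range of -1.94 to 0.36 and a median of -0.98.

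**Figure D3:**
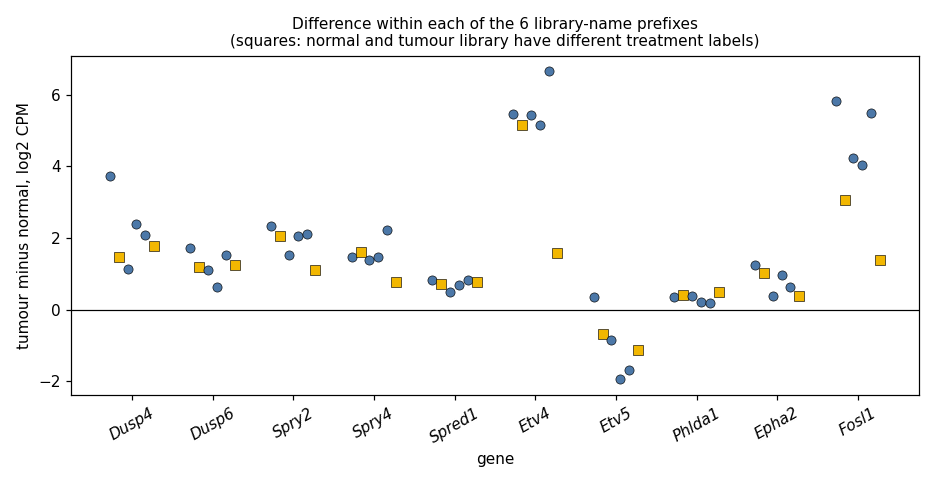
Difference in log2 CPM between the tumour and the normal library that share a library-name prefix, for each of the 10 genes; each point is 1 of the 6 prefixes and squares mark the 2 prefixes whose libraries have different treatment labels. Points lie above 0 for 9 genes in 6 of 6 prefixes, and for Etv5 in 1 of 6.

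Levels of different genes were compared per length, as RPKM (TMM-scaled CPM per kilobase of the deposited gene length), given as mean ± SD with n = 3. In normal VEH lung the order began with Dusp6 (28.9 ± 2.45 RPKM), Phlda1 (26.2 ± 6.06), Spry2 (22.9 ± 11.1), Etv5 (19.7 ± 9.95) and Epha2 (17.8 ± 1.29), neighbours within each other's spread. It ended with Fosl1 (4.38 ± 5.44), Dusp4 (2.75 ± 1.62) and Etv4 (1.65 ± 2.36), which also did not separate. In normal HDM lung Etv5 stood first at 41.0 ± 16.2 RPKM, within its spread of Dusp6 (32.8 ± 15.3), and Etv4 last at 0.341 ± 0.261.

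In tumours Dusp6 and Spry2 led under both treatments, at 73.9 ± 11.9 and 72.3 ± 16.1 RPKM under VEH and 67.9 ± 10.2 and 74.0 ± 12.7 under HDM. The next gene stood well below both, beyond their SDs: Phlda1 at 37.2 ± 3.36 RPKM under VEH and Fosl1 at 36.9 ± 10.2 under HDM. Fosl1 thus stood at place 8 or 9 in normal lung and at place 3 or 4 in tumours. Etv4 and Etv5 were neighbours in tumours, at 13.4 ± 1.76 and 13.2 ± 2.74 RPKM under VEH and 14.9 ± 6.2 and 13.8 ± 1.34 under HDM, within their spread. The deposited length of Spry2 is 2087 bases and that of Etv5 4103, against 5148 and 7506 bases of exon in the GENCODE M39 annotation, so their places in the order depend on the annotation used.

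The shapes of the profiles were compared over the 12 libraries as the root-mean-square distance between standardised log2 CPM values, as a description with no test. All libraries share the split into normal and tumour, which most of these profiles follow. The closest genes within the group were Etv4 and Fosl1 (0.229), Spry2 and Etv4 (0.234), and Spry2 and Fosl1 (0.239). Phlda1 was 0.857 or more from the other members, and Etv5 was at least 1.58 from each. Among 12297 genes of sufficient level, the nearest to Spry2 was Clspn (0.142), to Fosl1 Spc24 (0.136), to Etv4 the processed pseudogene Gm10036 (0.0964) and to Dusp4 Syne3 (0.188). Spred1 was nearest to Abitram (0.157), Epha2 to Psmd7 (0.212), Dusp6 to Sf3a2 (0.295) and Spry4 to Lbr (0.298). Etv5 was nearest to Tmem164 (0.339) and Phlda1 to Zfp35 (0.406), the loosest matches of the 10.

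Exons of other genes lie on the opposite strand of some members, and whether the counting used the strand is not stated. The largest overlap was that of Fosl1 with Ccdc85b, at 1163 bases. Ccdc85b held 32533 counts against 12502 for Fosl1 and was not called under VEH (log2 0.28, adjusted p = 0.489) or HDM (0.37, 0.341). Phlda1 shares 727 bases with the lncRNA gene Gm28592, which held 11069 counts against 19654 and had log2 fold changes of 0.75 and 0.10. Dusp6 shares 685 bases with Gm56965 (10822 counts against 50515), which rose by log2 2.05 and 1.33. Spry2 shares 564 bases with the lncRNA gene Gm62623 (5760 counts, log2 1.91 and 2.16). Epha2 shares 400 bases with Gm69991 (8188 counts, 0.75 and 0.70), and Etv4 312 bases with Gm39392 (588 counts, 3.50 and 9.51). Each of these neighbours was called under both treatments. Fosl1 also shares 241 bases with Gm59617 (303 counts), called under HDM alone (2.92, adjusted p = 0.0747, and 3.75, 0.0271). Dusp6 shares 94 bases with Gm34921 (934 counts), called under neither (0.41 and 0.59). Reads of each pair could be shared if strand was not used.

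The rest of the pathway was read from 6 lists holding 111 tested genes. Under VEH 22 of these were called higher and 37 lower, beside 18.2% and 20.6% of all tested genes, with a median log2 fold change of -0.27. Under HDM 24 were higher and 39 lower, beside 23.0% and 28.9%, with the same median. None was called for HDM against VEH in either tissue, or for the interaction. Among 20 ligands, 2 rose and 9 fell under VEH (median -1.36) and 4 rose and 10 fell under HDM (median -1.09). Pdgfc, a platelet-derived growth factor, rose by log2 2.74 under VEH and 3.33 under HDM, and the EGF receptor ligand Ereg by 5.29 under HDM. Without normal VEH replicate 2, Pdgfc was at 4.56 under VEH, and Ereg, not called there in the fit of all libraries (1.87, adjusted p = 0.111), was called (3.92, 0.00187). Fgf1, a fibroblast growth factor, was at -3.14 and -4.75. Among 16 receptor kinases, 2 rose and 9 fell under VEH (median -0.76) and 2 rose and 10 fell under HDM (median -1.92). Fgfr1 rose by 2.51 and 3.06, while Fgfr3 was at -3.37 and -5.62 and Fgfr4 at -4.11 and -6.28. Kdr, one of the receptors, is itself an endothelial marker and Pdgfra a fibroblast one, and the part of the marker sums given above was not tested.

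Among 18 RAS proteins, adaptors and GTPase regulators, 6 rose and 4 fell under VEH (median 0.24) and 7 rose and 3 fell under HDM (median 0.13). Nras rose by log2 0.57 under VEH and 0.62 under HDM, and Hras fell by 0.47 and 0.63. The Nras call under VEH was lost without normal VEH replicate 2 (0.50, adjusted p = 0.0913). Rasa2, which encodes a GTPase-activating protein, rose by 1.23 and 2.39. Of 15 RAF, MEK and ERK genes, 4 rose and 5 fell under VEH (median -0.21) and 2 rose and 3 fell under HDM (median -0.04). Mapk3, which encodes ERK1, was at -0.89 and -1.45, called under both treatments. Cic, which encodes Capicua, rose by 0.84 under VEH.

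Of 17 other inhibitors, 4 rose and 5 fell under VEH (median 0.19) and 5 rose and 4 fell under HDM (median 0.31). Dusp9 rose by log2 3.86 and 5.44 and Spred2, the relative of Spred1, by 1.03 and 0.76. Spry1, the relative of Spry2 and Spry4, was at -0.54 under VEH (adjusted p = 0.15) and fell by 0.76 under HDM (adjusted p = 0.045). Dusp8 fell by 2.02 and 3.67, and Dusp5, an ERK-specific nuclear phosphatase, was not called (0.99, adjusted p = 0.135, and 1.07, 0.0956). Without normal VEH replicate 2, Dusp5 was called under both treatments (1.83, adjusted p = 0.00702, and 1.07, 0.0257), Dusp9 was at 5.58 under VEH, and Spry1 was no longer called under HDM (-0.76, 0.0518). Of 25 other ERK-induced outputs, 4 rose and 5 fell under VEH (median 0.17) and 4 rose and 9 fell under HDM (median -0.48). Myc rose by 2.95 and 4.23 and Etv1, the relative of Etv4 and Etv5, by 1.88 and 2.34. Epha4, an ephrin receptor like Epha2, fell by 2.36 and 3.87. Ccnd1 (0.60, adjusted p = 0.273, and 0.38, 0.472) and Fosl2 (0.19, 0.671, and 0.62, 0.141) were not called. Without normal VEH replicate 2, Myc was at 5.50 under VEH, and Fosl2 was called under both treatments (0.77, adjusted p = 0.0187, and 0.62, 0.0199). These pathway lists were not tested against the 10 genes.

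**Figure D4:**
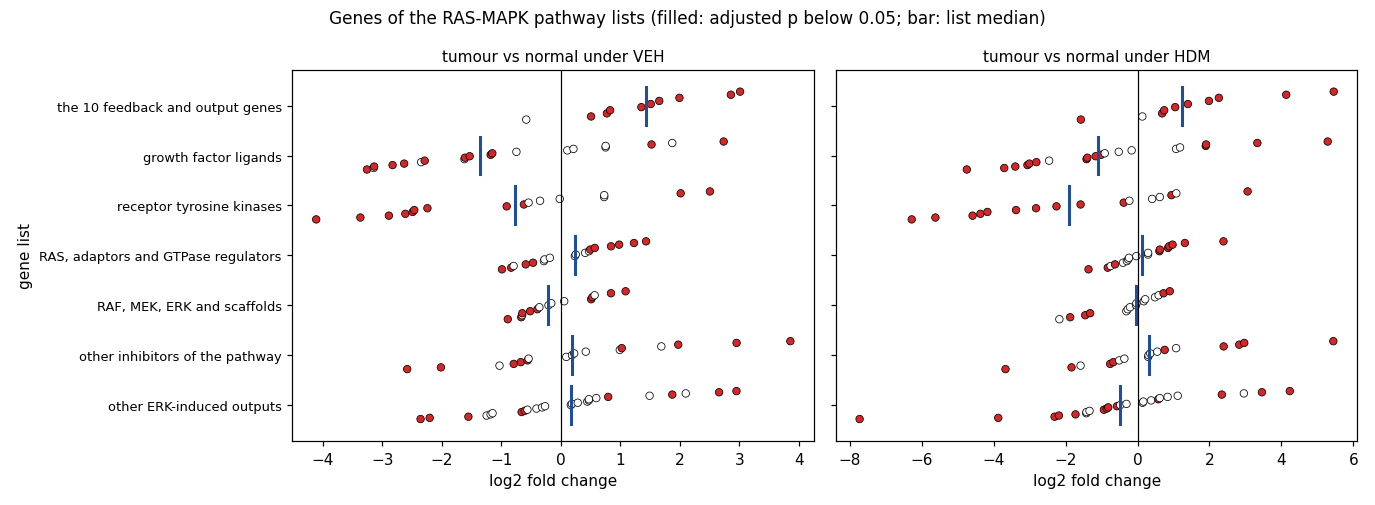
Log2 fold change of tumour against normal for each tested gene of the 10 feedback and output genes and of the 6 pathway lists, under VEH and HDM; points are genes, filled where called at an adjusted p of 0.05, vertical bars are list medians, and the 2 panels have different horizontal scales. The median of the 10 genes is 1.43 and 1.22, and those of ligands and receptor kinases lie below 0.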

How the data were processed

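Raw counts for each Ensembl gene ID, in 12 libraries, and a gene length make up the deposited table, per the file headers. Libraries were stranded dUTP libraries read from both ends, per the labels' protocols, which name poly(A) selection or ribosomal RNA depletion without saying which. The submitters' processing notes name Trim Galore, STAR, featureCounts and Subread, and the build mm39, with no versions. Strand use in counting and the annotation are not given in the sources used here. Symbols and coordinates came from GENCODE M39 on GRCm39, which held 78168 of the 78298 gene IDs.

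The tests were run in edgeR 4.0.16 under R 4.3.3: filterByExpr with a minimum count of 10, TMM scaling, 1 coefficient per group over all 12 libraries, robust quasi-likelihood F-tests (two-sided) and Benjamini-Hochberg adjustment over 22190 genes, with the threshold at 0.05. SE is the fold change's size divided by the root of F. Log2 CPM used a prior count of 2. DESeq2 1.42.0 was an alternative. The test was checked on simulated counts, for tumour against normal under VEH only. These were drawn with the same spread for every gene and no outlying library. The data differ from that setting, so the check does not bear on calls that rest on normal VEH replicate 2. No 2 replicates of a group agreed within sampling noise (chi-square per degree of freedom at least 32.5). All 12 libraries carry 1 batch label. Upstream windows cover 250 bases before the start of each gene's canonical transcript.

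The members and all lists were chosen with earlier results of these data known. All 10 members are named. From each pathway list, called genes with the largest changes at an average log2 CPM of 3 or more could be named, up to 2 in each direction, besides Ccnd1, Epha4, Spry1, Spred2, Dusp5, Etv1, Fosl2, Nras, Hras and Egfr. Myc and Dusp9 fall under this rule, and so does Cic. Some genes that the rule would name are not reported here. Likeness names the 1 nearest gene per member. Spry3 had no row. Alternatives covered scaling, the filter on low counts, DESeq2, a fit of the compared groups alone, a replicate block, a library-name prefix block, and leaving out each library or the 4 libraries of the 2 prefixes with conflicting treatment labels.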

Additional observations from a re-analysis of the deposited data

How the results depend on the processing

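No fit turned the direction of a called member. Of the 9 members called under VEH, Spry2, Spred1 and Epha2 were called in every fit run, and of the 9 called under HDM the same holds for Dusp4, Spry2, Spred1, Etv5 and Epha2. Under HDM, Etv4 was called in every fit that tested it. Members called ranged from 6 to 9 under VEH and from 8 to 9 under HDM over the 12 fits without 1 library, and stayed at 0 in the other comparisons. Over all genes, calls under VEH ranged from 5732 (without tumour VEH replicate 1) to 9070 without 1 library, and were 5603 without the 4 libraries of conflicting prefixes. For HDM against VEH in tumours, the count of 21 was 8 with library size only, 52 with no filter on low counts, 53 with at least 10 counts in every library, 1308 by DESeq2, 0 with only the compared groups, 0 with the library-name prefix block, 0 without the 4 libraries, and 0 to 24 without 1 library. In normal lung DESeq2 called 38. For the interaction DESeq2 called 219, and edgeR 0 to 6 without 1 library. The causes were not tested. With library size only, the median of all genes moved from -0.11 to 0.03 under VEH and from -0.08 to 0.10 under HDM, and the share of calls that were higher from 44.4% to 51.9% under HDM (46.9% to 55.1% under VEH), with the same counts of members called.

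Same-numbered libraries did not all deviate together: 8 of 18 pairs had a correlation over 0.1 (-0.355 to 0.303), and 3 of 6 prefix pairs (-0.219 to 0.179). Of the 12 libraries, 5 correlated best with a library of their own number. With the replicate block, 7 members were called under VEH, beside 3712 of 22190 genes called higher and 4118 lower. Spry4 (1.36, adjusted p = 0.0522) and Etv4 (3.35, 0.0593) were lost, and 1 gene was called between HDM and VEH in tumours. With the prefix block 6 members were called under VEH, Dusp4 (2.17, 0.056), Phlda1 (0.42, 0.0721) and Fosl1 (4.10, 0.0619) being lost, as was Fosl1 under HDM (3.88, 0.0537). Without the 4 libraries, Dusp6, Spry4 and Phlda1 were lost under VEH, and Dusp6 and Spry4 under HDM. With no filter, Spry4, Etv4 and Fosl1 were lost under VEH and Spry4 under HDM. Under the stricter filter Etv4 was not tested and Phlda1 was lost. With only the compared groups, Etv4, Phlda1 and Fosl1 were lost under VEH, and Dusp6 and Spry4 under HDM.

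The lowest count of a member in a library was 6, for Etv4 in normal lung under HDM. The SE of the Etv4 difference under HDM was 1.14, and 0.61 without normal VEH replicate 2, which leaves every HDM library in place.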
